A study of Mus musculus with 18 samples.

Results

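The genes described here encode aminoacyl-tRNA synthetases, the enzymes that load each tRNA with its amino acid. They are 16 cytosolic enzymes (Aars, Cars, Dars, Hars, Iars, Kars, Lars, Mars, Nars, Qars, Rars, Sars, Tars, Vars, Wars and Yars) and 16 mitochondrial enzymes whose symbols end in 2 (Aars2, Cars2, Ears2, Fars2, Hars2, Iars2, Lars2, Mars2, Nars2, Pars2, Rars2, Sars2, Tars2, Vars2, Wars2 and Yars2). The members were picked by symbol and not by a cutoff on any measured value, though earlier results of these data were known. All 32 were among the 24318 genes of the deposited table, and all 32 passed the filter on low counts that kept 13258 genes for testing.

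RNA came from embryonic mouse fibroblasts of genotype MafF-/-::MafG-/-::MafK-/-, so every group lacks the endogenous genes of all 3 small Mafs. One line carries T-N1G (T-NG1 in the genotype field), a tethered heterodimer of the transcription factor Nrf1, encoded by Nfe2l1, with MafG. The other is the mock line. For 12 h each line was given vehicle, 0.3 µM MG132 or 1.0 µM MG132, a proteasome inhibitor, and every one of the 6 groups has 3 libraries. The sources used here do not give the promoter driving T-N1G, whether a line is 1 clone, or whether a group's libraries are separate cultures. A p-value here measures no more than how these libraries vary, and that variation may be technical.

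Cytosolic synthetases supply aminoacyl-tRNAs to ribosomes translating nuclear-encoded messages, and several of them sit in a multi-synthetase complex held together by scaffold proteins. Mitochondrial synthetases are nuclear-encoded as well and are imported to serve the organelle's own ribosomes. Some enzymes are shared: the Kars gene also encodes the mitochondrial lysyl enzyme, and mitochondria have no glutaminyl enzyme of their own but amidate a misacylated tRNA. Genes of cytosolic synthetases are known targets of ATF4, the transcription factor of the integrated stress response, which binds C/EBP-ATF response elements with C/EBP partners. Nrf1 is known as the activator of proteasome genes when the proteasome is inhibited, and it binds antioxidant response elements together with a small Maf.

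Depth was 18164380 to 21293709 fragments per library, and a member was counted with 42 to 26441 fragments. Libraries varied most at 1.0 µM, with a median SD of log2 CPM of 0.177 in T-N1G and 0.143 in mock cells, against 0.0485 to 0.0748 in the other groups. CPM is a count scaled to a common library total, adjusted by the trimmed mean of M values (TMM), and is used between libraries. Nfe2l1, which T-N1G carries, was 1.98, 3.63 and 5.76 log2 units higher in T-N1G than in mock cells under vehicle, 0.3 µM and 1.0 µM. Mafg differed by 8.79, 10.50 and 11.54 log2 units in the same order and stayed at or under 1.10 CPM in every mock library. All 10 fibroblast markers were detected, at 9123 to 13770.0 CPM in sum, but 8 of 10 were called lower and 1 higher at each dose in T-N1G cells, and in mock cells 4 were lower and 2 higher at 0.3 µM and 6 lower and 2 higher at 1.0 µM. Leukocyte markers summed to 1.62 to 4.81 CPM, with Cd3e at 0 in all mock libraries, and muscle and fat markers to 0.274 to 2.71 CPM. Only 2 genes of each of these lists were tested. From this low level Ptprc rose by 4.35 log2 units in T-N1G and 4.66 in mock cells at 1.0 µM, and Cd68 by 0.58 and 0.49. Myh3 rose by 4.97 and 5.33, and Des changed by -1.51, called, and -1.08, not called. Endothelial markers summed to 25.5 to 40.9 CPM in T-N1G and 64.5 to 87.4 CPM in mock cells at 1.0 µM, against 5.06 to 6.81 CPM and 5.98 to 6.77 CPM under vehicle. Epithelial markers lay between 16.1 and 73.8 CPM. At 1.0 µM Fn1 led the fibroblast rises and Col3a1, Pdgfrb and Sparc the falls, and Krt8, Krt18 and Krt14 led the epithelial rises. Of the endothelial markers Cdh5, Kdr and Vwf rose in both lines at 1.0 µM. Pecam1 rose there in T-N1G cells (3.24 log2 units) and was not called in mock cells (-0.19, adjusted p = 0.811). The part of these shifts in the results for synthetases was not tested.

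With MG132 the cytosolic class had a higher median change than the mitochondrial class at both doses in both lines. A gene was called at an adjusted p under 0.05 in edgeR's quasi-likelihood test, fitted and adjusted over all 13258 genes. In T-N1G cells at 0.3 µM, 23 of the 32 members were called, 19 higher and 4 lower, while 59.4% of all genes were called, 29.1% higher and 30.3% lower. The cytosolic class held 14 of the rises and no fall, with a median log2 change of 0.66, and the mitochondrial class held 5 rises and 4 falls with a median of -0.16. The median over all genes was -0.01. At 1.0 µM in the same cells 26 members were called (76.4% of all genes, 37.5% higher and 38.9% lower). Of the cytosolic enzymes 13 rose and 3 fell, with a median of 0.87, and of the mitochondrial enzymes 4 rose and 6 fell, with a median of -0.23 that became -0.15 without vehicle library 3 or without 1.0 µM library 1.

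In mock cells at 0.3 µM, 22 members were called, against 53.1% of all genes, 25.0% higher and 28.1% lower. There, 13 cytosolic enzymes rose and none of the 16 was called lower (3 were not called), with a median of 0.55, while 1 mitochondrial enzyme rose and 8 fell, with a median of -0.20 beside -0.02 for all genes. At 1.0 µM, 26 members were called, against 69.7% of all genes, 32.4% higher and 37.4% lower. Here 11 cytosolic enzymes rose and 2 fell, with a median of 0.77, and 1 mitochondrial enzyme rose and 12 fell, with a median of -0.55 beside -0.04 for all genes. Without mock 1.0 µM library 1 that mitochondrial median was -0.36. In RNA from whole cultures, fewer cells of a kind and less RNA per cell cannot be told apart.

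The map of log2 changes sets all 32 members side by side over the 4 comparisons with vehicle. Called higher in all 4 were 11 cytosolic enzymes (Aars, Cars, Iars, Kars, Lars, Nars, Rars, Sars, Tars, Wars and Yars) and 1 mitochondrial enzyme, Lars2. Called lower in all 4 were 3 mitochondrial enzymes, Iars2, Rars2 and Vars2, and no cytosolic one. Qars, Hars2 and Yars2 were called higher in some comparisons and lower in others, and Ears2 was called in none. The comparisons of a line share its vehicle libraries, so the 4 columns of the map are not independent. Each comparison called 25.0% to 37.5% of all genes higher and 28.1% to 38.9% lower. The share of all genes called alike in all 4 was not counted, so the counts of members have no background beside them.

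**Figure D1:**
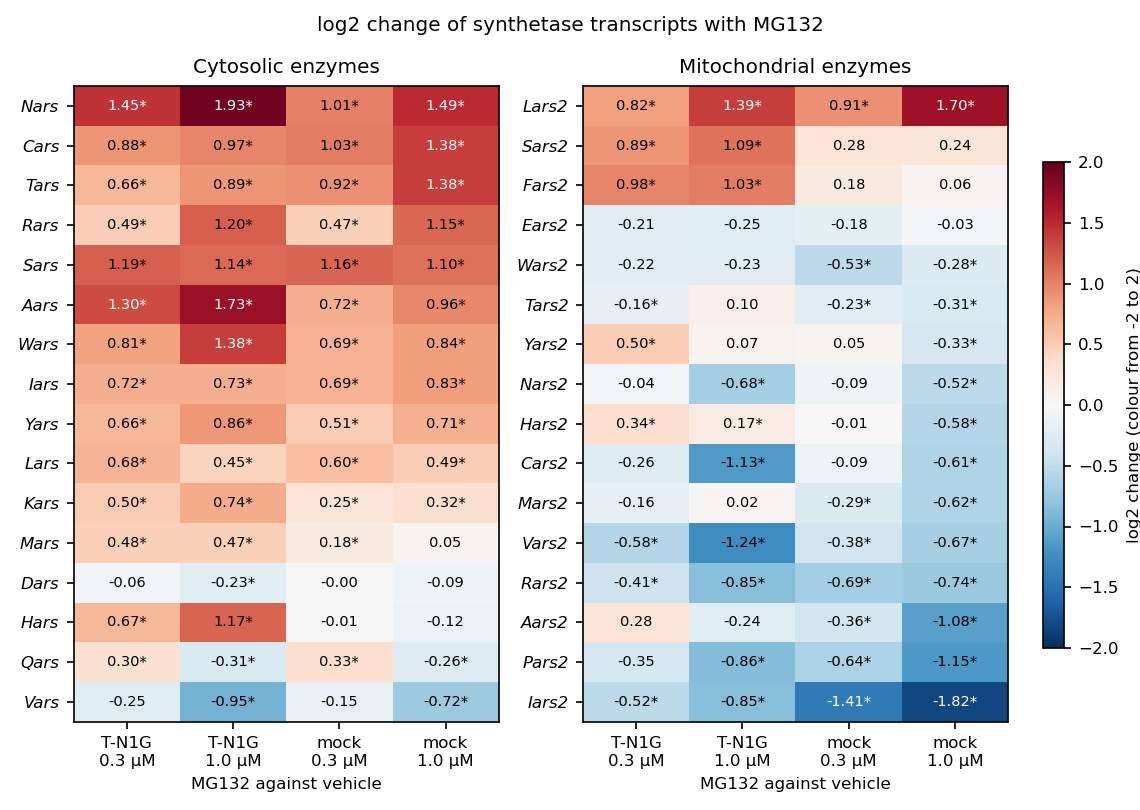
log2 change of each synthetase transcript with MG132 against vehicle, by dose, for 16 cytosolic (left panel) and 16 mitochondrial enzymes (right panel), with T-N1G columns left of mock columns in each panel; an asterisk marks an adjusted p under 0.05 in edgeR's quasi-likelihood test. Most cytosolic cells of the map are positive (median 0.55 to 0.87), most mitochondrial ones negative (median -0.16 to -0.55), while Vars and Dars are at or below 0 and Lars2, Fars2 and Sars2 above 0 in all 4 comparisons.

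Nars and Aars had the largest rises of the cytosolic class in T-N1G cells. Nars, the asparaginyl enzyme, had 279, 252 and 259.6 CPM under vehicle, 728, 759 and 674 CPM at 0.3 µM and 1232, 874 and 898 CPM at 1.0 µM in T-N1G cells. In mock cells Nars had 347, 362 and 335 CPM under vehicle, 716, 679.6 and 711 CPM at 0.3 µM and 1084, 967 and 881 CPM at 1.0 µM. The 3 doses did not overlap in either line, and 1.0 µM library 1 of the T-N1G line stood above the other 2. The log2 change was 1.45 ± 0.11 at 0.3 µM and 1.93 ± 0.11 at 1.0 µM in T-N1G cells (adjusted p = 4.04e-09 and 3.61e-11), and 1.01 ± 0.11 and 1.49 ± 0.11 in mock cells (adjusted p = 6.16e-07 and 2.17e-09).

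Aars, the alanyl enzyme, was counted at 472, 416 and 449 CPM under vehicle, 1131, 1092 and 1074 CPM at 0.3 µM and 1616, 1379 and 1433 CPM at 1.0 µM in the T-N1G line. The mock line had 452, 454 and 418 CPM under vehicle, 754, 692 and 744 CPM at 0.3 µM and 812, 868 and 889 CPM at 1.0 µM. Under vehicle the lines overlapped, while at each MG132 dose every T-N1G library was above every mock library. Aars rose 2.47-fold and 3.31-fold in T-N1G cells and 1.65-fold and 1.94-fold in mock cells (adjusted p = 2.21e-10, 1.79e-12, 5.13e-07 and 6.56e-09). Reference transcripts of Aars and of its neighbour Exosc6 share 1326 identical bases, and Exosc6 fell in all 4 comparisons, by 0.56 to 1.33 on the log2 scale.

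Sars, the seryl enzyme, rose at the lower dose with no called further change at the higher one. In T-N1G cells Sars had 187, 179.6 and 190.3 CPM under vehicle, 413, 439 and 422 CPM at 0.3 µM and 347, 467 and 411 CPM at 1.0 µM. The mock libraries gave 213, 233 and 204 CPM under vehicle, 486, 476 and 488 CPM at 0.3 µM and 424, 487 and 481 CPM at 1.0 µM. All treated libraries were above all vehicle libraries, and the 2 doses overlapped in both lines. The log2 change of Sars was 1.19 ± 0.09 and 1.14 ± 0.09 in T-N1G cells and 1.16 ± 0.09 and 1.10 ± 0.09 in mock cells, with adjusted p of 3.55e-09, 2.16e-09, 1.31e-08 and 7.41e-09. Its change between 0.3 and 1.0 µM was -0.06 in T-N1G and -0.06 in mock cells (adjusted p = 0.609 and 0.604).

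Cars and Tars changed more in mock cells at 1.0 µM, as the interaction of line and dose showed. Cars, the cysteinyl enzyme, had 107, 102 and 113 CPM under vehicle, 190.0, 209 and 194 CPM at 0.3 µM and 199, 233 and 201 CPM at 1.0 µM in T-N1G cells. Its mock libraries had 126, 138 and 119.9 CPM under vehicle, 263, 259 and 263 CPM at 0.3 µM and 332, 370.1 and 299.9 CPM at 1.0 µM. Treated libraries were above vehicle libraries throughout, and T-N1G libraries were below mock libraries at every dose. The changes were 0.88 ± 0.08 and 0.97 ± 0.08 log2 units in T-N1G cells and 1.03 ± 0.08 and 1.38 ± 0.09 in mock cells (adjusted p = 7.67e-08, 7.39e-09, 2.3e-08 and 2.26e-10). Reference transcripts of Cars and of the pseudogene Gm15580 share 214 identical bases.

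Tars, the threonyl enzyme, was at 199.8, 196 and 199 CPM under vehicle, 306, 342 and 292 CPM at 0.3 µM and 374, 383 and 345 CPM at 1.0 µM in T-N1G cells. In the mock line Tars was at 238, 247 and 227 CPM under vehicle, 466, 425 and 457 CPM at 0.3 µM and 632, 634 and 593 CPM at 1.0 µM. Doses did not overlap in either line, and again each T-N1G group lay below its mock counterpart. Tars rose by 0.66 ± 0.07 and 0.89 ± 0.07 log2 units in T-N1G cells and by 0.92 ± 0.07 and 1.38 ± 0.07 in mock cells (adjusted p = 3.11e-07, 2.42e-09, 1.17e-08 and 3.08e-11).

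Wars, the tryptophanyl enzyme, had 98.97, 94.3 and 88.7 CPM under vehicle, 176, 162 and 157 CPM at 0.3 µM and 270.1, 222 and 242 CPM at 1.0 µM in T-N1G cells. The mock values of Wars were 101, 97.6 and 89.4 CPM under vehicle, 155, 148 and 163 CPM at 0.3 µM and 173, 169.8 and 172 CPM at 1.0 µM. Each dose was above the one before it in both lines, without overlap, and only at 1.0 µM did the lines separate. The log2 changes were 0.81 ± 0.08 and 1.38 ± 0.08 in T-N1G cells and 0.69 ± 0.08 and 0.84 ± 0.08 in mock cells (adjusted p = 6.77e-08, 2.31e-11, 8.26e-07 and 3.19e-08).

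Lars, the leucyl enzyme and a subunit of the multi-synthetase complex, had 153, 153 and 159.9 CPM under vehicle, 243, 262 and 239 CPM at 0.3 µM and 218, 223 and 194 CPM at 1.0 µM in T-N1G cells. Lars had 210.0, 215 and 197 CPM under vehicle, 322, 304 and 315 CPM at 0.3 µM and 271, 316 and 287 CPM at 1.0 µM in mock cells. Treated libraries were above vehicle libraries in both lines, and in T-N1G cells the higher dose lay below the lower one. The rise was 0.68 ± 0.07 and 0.45 ± 0.07 log2 units in T-N1G cells and 0.60 ± 0.07 and 0.49 ± 0.07 in mock cells (adjusted p = 2.79e-07, 1.83e-05, 1.94e-06 and 8.26e-06).

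The remaining enzymes called higher in all 4 comparisons were Iars, Kars, Rars and Yars. Iars (isoleucyl) rose by 0.72 and 0.73 log2 units in T-N1G cells and 0.69 and 0.83 in mock cells. Its transcript shares a stretch of 1656 bases, 96.0% identical, with the pseudogene Gm4849, so its counts are less certain. Rars (arginyl) rose by 0.49 and 1.20 in T-N1G cells and 0.47 and 1.15 in mock cells, with most of the rise between the doses. Yars (tyrosyl) rose by 0.66 and 0.86 in T-N1G cells and 0.51 and 0.71 in mock cells. The Yars locus overlaps C77080 in the deposited table. Its reference transcripts share stretches with many other genes, the longest 221 bases with H2-Q4 (96.4% identical). The part of these in the Yars values was not tested. Kars, which serves both compartments, rose least in mock cells, by 0.25 and 0.32, beside 0.50 and 0.74 in T-N1G cells. Mars (methionyl) rose by 0.48 and 0.47 in T-N1G cells and by 0.18 at 0.3 µM in mock cells, while its change of 0.05 at 1.0 µM there was not called (adjusted p = 0.522). The mock 0.3 µM call of Mars was lost without mock vehicle library 3 or mock 0.3 µM library 1 or 3. Over all alternatives that lost it the log2 change was 0.12 to 0.18. The Mars locus overlaps Ddit3 in the deposited table, and Ddit3, the stress-induced factor CHOP, changed by 1.97 and 1.35 in T-N1G cells and 2.20 and 1.88 in mock cells.

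**Figure D2:**
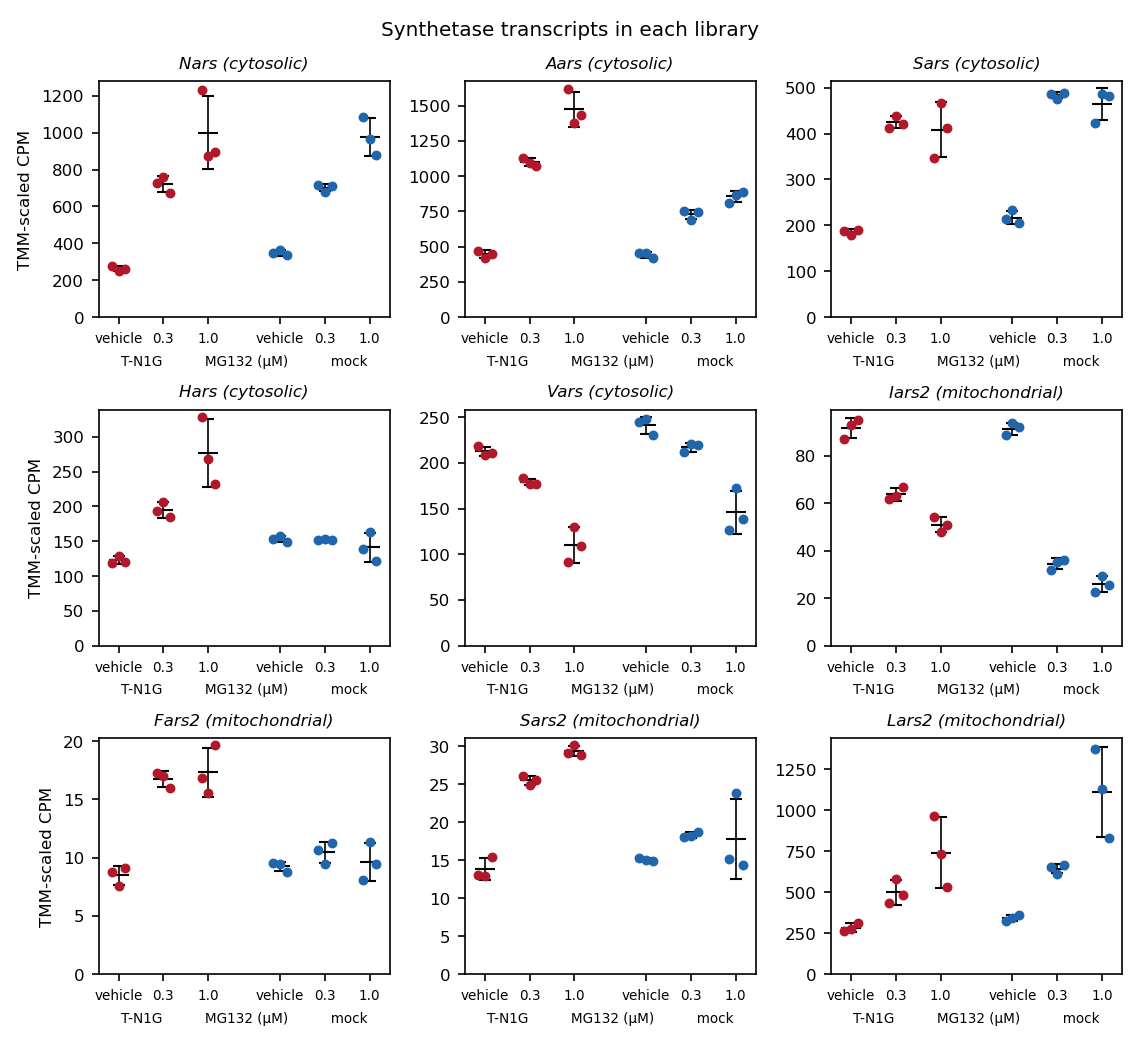
TMM-scaled CPM of 9 synthetase transcripts in every library (points) with the mean ± SD of each group (3 libraries), T-N1G groups left of mock groups and vehicle, 0.3 µM and 1.0 µM MG132 within each. Nars, Aars and Sars climb in both lines, Hars and Fars2 in the T-N1G line, Vars and Iars2 fall in both, and Lars2 spreads at 1.0 µM.

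The promoter windows of the cytosolic members are shown for the C/EBP-ATF element because 11 of the 16 were called higher in all 4 MG132 comparisons. RefSeq windows (build GRCm38.p6, 250 bases before to 50 after a start site, so 300 bases) were present for 22 of the 32 members, 8 cytosolic and 14 mitochondrial. TGATGNAA, the core of the C/EBP-ATF response element searched on both strands, was found in 4 of the 8 cytosolic windows, 0 of the 14 mitochondrial members' windows and 3.97% of all 32851 windows. The 4 are printed 5′ to 3′ on the gene's strand with the matches in capitals. The fifth is Aars2, 1 of 3 mitochondrial members with the antioxidant response element core TGACNNNGC, here in capitals. Positions count from 1 at the start site, with negative numbers before it.
Aars, chr8:111033592-111033891, plus strand: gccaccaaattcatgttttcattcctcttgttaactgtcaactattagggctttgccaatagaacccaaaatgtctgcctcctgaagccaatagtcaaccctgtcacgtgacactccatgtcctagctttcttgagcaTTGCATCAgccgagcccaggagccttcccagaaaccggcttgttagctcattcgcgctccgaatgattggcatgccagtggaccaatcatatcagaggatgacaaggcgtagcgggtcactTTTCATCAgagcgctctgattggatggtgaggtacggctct
Iars, chr13:49681880-49682179, plus strand: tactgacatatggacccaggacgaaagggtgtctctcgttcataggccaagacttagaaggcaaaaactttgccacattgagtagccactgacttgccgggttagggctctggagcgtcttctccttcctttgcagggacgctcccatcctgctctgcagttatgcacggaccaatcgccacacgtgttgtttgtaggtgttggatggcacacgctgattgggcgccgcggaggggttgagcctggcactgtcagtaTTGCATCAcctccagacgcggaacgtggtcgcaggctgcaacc
Tars, chr15:11399609-11399908, minus strand: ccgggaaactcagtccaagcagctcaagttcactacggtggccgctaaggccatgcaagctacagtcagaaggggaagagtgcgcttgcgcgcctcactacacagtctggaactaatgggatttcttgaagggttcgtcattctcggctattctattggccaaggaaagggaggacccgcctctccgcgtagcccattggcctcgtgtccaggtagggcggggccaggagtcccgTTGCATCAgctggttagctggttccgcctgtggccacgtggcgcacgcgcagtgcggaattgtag
Yars, chr4:129189653-129189952, plus strand: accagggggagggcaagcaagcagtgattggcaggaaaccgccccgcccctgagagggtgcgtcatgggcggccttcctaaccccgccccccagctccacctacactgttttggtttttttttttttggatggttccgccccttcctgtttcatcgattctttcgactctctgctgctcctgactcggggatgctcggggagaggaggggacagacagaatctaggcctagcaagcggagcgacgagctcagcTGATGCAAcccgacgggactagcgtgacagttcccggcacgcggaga
Aars2, chr17:45506582-45506881, plus strand: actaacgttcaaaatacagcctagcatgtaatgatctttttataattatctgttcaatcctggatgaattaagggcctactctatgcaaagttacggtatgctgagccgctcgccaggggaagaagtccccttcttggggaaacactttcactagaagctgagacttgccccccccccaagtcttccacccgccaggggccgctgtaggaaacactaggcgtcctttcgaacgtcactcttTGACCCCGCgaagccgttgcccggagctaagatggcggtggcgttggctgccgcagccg

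The capitals in Aars lie at -112 to -105 and 10 to 17, both in the reverse orientation. Iars has its match at 8 to 15 and Tars at -15 to -8, also reversed, and Yars has the forward form at 4 to 11. All 4 of these genes rose in all 4 MG132 comparisons, but so did Kars and Sars, whose windows hold no match, and the windows of Dars and Qars hold none either. The antioxidant core TGACNNNGC was in 2 of 8 cytosolic windows (Aars and Iars), 3 of 14 mitochondrial members' windows (Aars2, Lars2 and Nars2) and 12.4% of all windows. Among these members Aars and Aars2 had called interactions of line and dose, and Iars, Lars2 and Nars2 had none. The heat shock core GAANNTTC was in the Dars window alone among the members (7.86% of all windows). The E-box CACGTG was in Aars, Iars, Tars and Ears2 (7.15% of all windows), and no matches of different motifs shared a base. A match describes the letters of the window and is not evidence of binding.

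Not every cytosolic enzyme rose. Vars, the valyl enzyme, had 218, 209 and 211 CPM under vehicle, 183, 177 and 177 CPM at 0.3 µM and 91.6, 130.0 and 109 CPM at 1.0 µM in T-N1G cells. Vars in mock cells was at 245, 248 and 230.2 CPM under vehicle, 212, 221 and 219 CPM at 0.3 µM and 126, 172 and 139 CPM at 1.0 µM. Each dose lay below the one before it without overlap in both lines. Vars fell by 0.95 on the log2 scale at 1.0 µM in T-N1G cells (SE 0.11, adjusted p = 2.53e-07) and by 0.72 in mock cells (SE 0.11, adjusted p = 9.18e-06), and its changes of -0.25 and -0.15 at 0.3 µM were not called (adjusted p = 0.0526 and 0.251).

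Qars, the glutaminyl enzyme, went both ways with dose. T-N1G libraries had 106, 103 and 109.7 CPM under vehicle, 125, 133 and 133 CPM at 0.3 µM and 74.3, 109 and 74.1 CPM at 1.0 µM. Mock libraries had 134, 135 and 128 CPM under vehicle, 166, 177 and 158 CPM at 0.3 µM and 102, 124 and 106 CPM at 1.0 µM. At 0.3 µM both lines were above vehicle, at 1.0 µM mock libraries were below vehicle, and in T-N1G cells library 2 at 1.0 µM stood with the vehicle libraries while the other 2 were below them. The log2 change was 0.30 ± 0.11 and -0.31 ± 0.11 in T-N1G cells and 0.33 ± 0.11 and -0.26 ± 0.11 in mock cells (adjusted p = 0.0298, 0.0214, 0.0185 and 0.0494). These calls are near the threshold, and the range given with each lost call below spans all alternatives that lost it. The mock 1.0 µM call was lost when any 1 library was left out other than T-N1G 1.0 µM library 2, at log2 changes of -0.28 to -0.14. The T-N1G 1.0 µM call was lost without vehicle library 1 or 3 or 1.0 µM library 1 or 3 of that line (-0.29 to -0.19), the T-N1G 0.3 µM call without vehicle library 1 or 2 or 0.3 µM library 2 or 3 (0.23 to 0.32), and the mock 0.3 µM call without vehicle library 3 or 0.3 µM library 2 (0.28 to 0.34). The step between the doses was -0.61 ± 0.11 in T-N1G and -0.59 ± 0.11 in mock cells (adjusted p = 0.000223 and 0.000387).

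Dars, the aspartyl enzyme of the complex, changed least. It was at 104, 109 and 104 CPM under vehicle, 101, 106 and 97.1 CPM at 0.3 µM and 95.2, 84.9 and 90.9 CPM at 1.0 µM in T-N1G cells. Dars in mock cells was at 97.6, 103 and 95.9 CPM under vehicle, 102, 95.1 and 98.9 CPM at 0.3 µM and 94.9, 92.4 and 91.9 CPM at 1.0 µM. In both lines 0.3 µM overlapped vehicle and 1.0 µM lay just below it. Only the T-N1G change at 1.0 µM was called, -0.23 ± 0.06 (adjusted p = 0.00238), and the other 3 changes ran from -0.09 to -0.00.

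Hars, the histidyl enzyme, rose in the T-N1G line. In T-N1G cells it had 119, 129 and 119.8 CPM under vehicle, 193, 207 and 185 CPM at 0.3 µM and 329, 269 and 232 CPM at 1.0 µM. Mock libraries had 153, 158 and 149 CPM under vehicle, 151, 153 and 151 CPM at 0.3 µM and 139, 163 and 122 CPM at 1.0 µM. The T-N1G doses rose without overlap, while the mock groups overlapped at every dose. T-N1G libraries were below mock libraries under vehicle and above them at both doses. Hars rose by 0.67 ± 0.11 and 1.17 ± 0.11 log2 units in T-N1G cells (adjusted p = 3.35e-05 and 1.65e-08), and its mock changes of -0.01 ± 0.11 and -0.12 ± 0.11 were not called (adjusted p = 0.927 and 0.336). Hars and Hars2 are divergent neighbours whose reference transcripts share 195 identical bases.

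Among mitochondrial enzymes Iars2, the isoleucyl enzyme, fell furthest in mock cells. In T-N1G cells Iars2 had 86.8, 92.9 and 94.96 CPM under vehicle, 61.6, 62.9 and 66.9 CPM at 0.3 µM and 54.2, 47.98 and 50.7 CPM at 1.0 µM. In mock cells it had 88.5, 93.6 and 91.9 CPM under vehicle, 31.8, 35.3 and 36.1 CPM at 0.3 µM and 22.7, 29.3 and 25.7 CPM at 1.0 µM. All doses separated in both lines, and treated T-N1G libraries stayed above treated mock libraries. Iars2 fell to 0.697 of its vehicle level at 0.3 µM and 0.556 at 1.0 µM in T-N1G cells, and to 0.377 and 0.283 in mock cells (adjusted p = 2.59e-05, 3.55e-08, 6.19e-10 and 1.07e-11). Its locus in the deposited table also holds Rab3gap2, with which its reference transcripts share 2034 identical bases, and Rab3gap2 changed by 0.77 and 1.33 log2 units in T-N1G cells and 0.08 and 0.31 in mock cells. The part of the shared bases in the Iars2 values was not tested.

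Rars2, the arginyl enzyme, was called lower in all 4 comparisons. It had 31.05, 31.1 and 28.1 CPM under vehicle, 22.7, 23.2 and 22.1 CPM at 0.3 µM and 14.6, 16.7 and 18.8 CPM at 1.0 µM in T-N1G cells. Mock cells had 44.03, 41.2 and 40.3 CPM under vehicle, 26.01, 22.5 and 29.2 CPM at 0.3 µM and 18.1, 26.3 and 30.4 CPM at 1.0 µM. Treated libraries were below vehicle libraries in both lines, and mock 1.0 µM library 1 was the lowest of its group. The log2 change was -0.41 ± 0.14 and -0.85 ± 0.14 in T-N1G cells and -0.69 ± 0.14 and -0.74 ± 0.14 in mock cells (adjusted p = 0.0177, 3.28e-05, 0.000388 and 0.000119). The T-N1G call at 0.3 µM was lost without vehicle library 1 or 2 or 0.3 µM library 3 of that line, at -0.37 to -0.36.

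Vars2, the valyl enzyme, fell like its cytosolic partner. T-N1G cells gave 28.6, 26.1 and 26.2 CPM under vehicle, 18.5, 16.3 and 19.3 CPM at 0.3 µM and 8.72, 14.4 and 11.2 CPM at 1.0 µM. Mock cells gave 28.5, 29.3 and 31.4 CPM under vehicle, 21.7, 24.1 and 22.7 CPM at 0.3 µM and 14.4, 23.4 and 18.2 CPM at 1.0 µM. Treated libraries were below vehicle libraries in both lines, and mock 1.0 µM library 2 stood above the other 2. Vars2 changed by -0.58 ± 0.15 and -1.24 ± 0.16 in T-N1G cells and -0.38 ± 0.15 and -0.67 ± 0.15 in mock cells (adjusted p = 0.00304, 1.15e-06, 0.0407 and 0.000733). The mock 0.3 µM call was lost without any 1 vehicle library of either line or any mock 0.3 µM library. It was also lost without library 3 of either treated T-N1G group. Over all alternatives that lost it the log2 change was -0.42 to -0.31. A reference antisense transcript, Gm20483, overlaps Vars2 over 339 bases, and whether counting used strand is not given in the sources used here.

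Pars2, the prolyl enzyme, had 6.26, 5.66 and 5.52 CPM under vehicle, 4.51, 4.81 and 4.39 CPM at 0.3 µM and 2.58, 2.99 and 4.01 CPM at 1.0 µM in T-N1G cells, a low level with 42 to 188 fragments over all libraries. The mock line had 7.46, 8.70 and 6.34 CPM under vehicle, 5.21, 4.41 and 4.78 CPM at 0.3 µM and 3.44, 3.48 and 3.21 CPM at 1.0 µM. Each dose was below the one before in both lines, without overlap. The log2 change was -0.86 ± 0.16 at 1.0 µM in T-N1G cells and -0.64 ± 0.15 and -1.15 ± 0.16 in mock cells (adjusted p = 8.77e-05, 0.00148 and 3.32e-06), and -0.35 at 0.3 µM in T-N1G cells was not called (adjusted p = 0.0582).

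Cars2, the cysteinyl enzyme, fell at the higher dose. It had 11.1, 11.1 and 11.7 CPM under vehicle, 9.41, 8.50 and 10.4 CPM at 0.3 µM and 4.11, 6.03 and 5.31 CPM at 1.0 µM in T-N1G cells. Cars2 had 11.4, 11.9 and 12.2 CPM under vehicle, 11.8, 10.8 and 10.6 CPM at 0.3 µM and 4.57, 10.2 and 8.39 CPM at 1.0 µM in mock cells. In T-N1G cells each dose was below the one before without overlap, and in mock cells 1.0 µM library 1 was far below the other 2. The log2 change at 1.0 µM was -1.13 ± 0.20 in T-N1G cells and -0.61 ± 0.19 in mock cells (adjusted p = 5.24e-05 and 0.00844), and without that mock library the mock value was -0.29 and no longer called. At 0.3 µM the changes were -0.26 and -0.09 in T-N1G and mock cells, and neither was called (adjusted p = 0.254 and 0.696).

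Aars2, the alanyl enzyme, fell in mock cells. T-N1G cells had 16.4, 18.9 and 19.7 CPM under vehicle, 23.3, 22.4 and 20.9 CPM at 0.3 µM and 13.1, 18.4 and 14.96 CPM at 1.0 µM. Mock cells had 20.3, 20.00 and 19.3 CPM under vehicle, 15.2, 17.2 and 14.05 CPM at 0.3 µM and 7.22, 12.04 and 8.97 CPM at 1.0 µM. In the mock line each dose was below the one before, while in the T-N1G line 0.3 µM was above vehicle and 1.0 µM overlapped it. Mock changes were -0.36 ± 0.14 and -1.08 ± 0.15 (adjusted p = 0.045 and 4.84e-06), and T-N1G changes of 0.28 ± 0.14 and -0.24 ± 0.15 were not called (adjusted p = 0.104 and 0.142). The mock call at 0.3 µM was lost in 12 of the 18 fits that left out 1 library. Among the 18 it held only without mock 0.3 µM library 2, any mock 1.0 µM library or T-N1G 1.0 µM library 1 or 2. Over all alternatives that lost it the log2 change was -0.36 to -0.30.

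Smaller falls were seen in Mars2, Nars2, Tars2 and Wars2. Nars2 (asparaginyl) changed by -0.68 at 1.0 µM in T-N1G and -0.52 in mock cells, both called, with -0.04 and -0.09 at 0.3 µM, neither called. Its transcripts overlap the antisense C230038L03Rik over 284 bases. Mars2 (methionyl) changed by -0.16 and 0.02 in T-N1G cells, neither called, and by -0.29 and -0.62 in mock cells, both called, with an interaction of 0.12 at 0.3 µM (adjusted p = 0.569) and 0.64 at 1.0 µM (adjusted p = 0.00116). Wars2 (tryptophanyl) changed by -0.22 and -0.23 in T-N1G cells, neither called, and by -0.53 and -0.28 in mock cells, both called, and its interactions of 0.31 and 0.05 were not called (adjusted p = 0.162 and 0.826). Tars2 (threonyl) changed by -0.16 and 0.10 in T-N1G cells, only the first called, and by -0.23 and -0.31 in mock cells, both called. The T-N1G 0.3 µM call of Tars2 was lost in 16 of 18 fits without 1 library and held without T-N1G vehicle library 2 or T-N1G 1.0 µM library 2. The mock 1.0 µM call of Wars2 was lost in 11 of 18, which were those without any vehicle library, T-N1G 0.3 µM library 3, T-N1G 1.0 µM library 1 or 3, or mock 1.0 µM library 1 or 2. The mock 0.3 µM calls were lost without any mock vehicle library or mock 0.3 µM library 1 for Mars2, and without mock vehicle library 1 or 3 for Tars2. Ears2 (glutamyl) changed by -0.25 to -0.03 over the 4 comparisons, with none called and all groups overlapping.

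Lars2, the leucyl enzyme, was the mitochondrial member called higher in all 4 comparisons with vehicle. T-N1G libraries had 259.9, 275 and 312 CPM under vehicle, 436, 583 and 479.8 CPM at 0.3 µM and 964, 732 and 528 CPM at 1.0 µM. Mock libraries had 324, 340.2 and 361 CPM under vehicle, 653, 611 and 664 CPM at 0.3 µM and 1376, 1126 and 832 CPM at 1.0 µM. Treated libraries were above vehicle libraries in both lines, and at 1.0 µM library 3 was the lowest in each line. Lars2 rose by 0.82 ± 0.19 and 1.39 ± 0.19 log2 units in T-N1G cells and 0.91 ± 0.19 and 1.70 ± 0.19 in mock cells (adjusted p = 0.00112, 3.77e-06, 0.000597 and 5.96e-07). Rn45s, the gene of the ribosomal RNA precursor, was at 2358, 2557 and 1194 CPM in T-N1G and 3849, 3916 and 2003 CPM in mock cells at 1.0 µM, with library 3 likewise the lowest. Rn45s was not called in any MG132 comparison (log2 change 0.22 to 0.51), and its part in the Lars2 values was not tested.

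Fars2, the phenylalanyl enzyme, rose in T-N1G cells. It had 8.80, 7.55 and 9.07 CPM under vehicle, 17.2, 17.05 and 15.95 CPM at 0.3 µM and 16.8, 15.6 and 19.7 CPM at 1.0 µM there. Mock libraries had 9.53, 9.44 and 8.76 CPM under vehicle, 10.7, 9.45 and 11.2 CPM at 0.3 µM and 8.12, 11.4 and 9.45 CPM at 1.0 µM. Treated T-N1G libraries were above vehicle libraries and above all mock libraries of the same dose, while the mock groups overlapped. The T-N1G change was 0.98 ± 0.12 and 1.03 ± 0.13 (adjusted p = 2.36e-06 and 6.01e-07), and mock changes of 0.18 ± 0.13 and 0.06 ± 0.13 were not called (adjusted p = 0.255 and 0.683). Reference transcripts of Fars2 and its neighbour Nrn1 share 503 identical bases, and Nrn1 fell in all 4 comparisons, by 1.15 to 2.30 on the log2 scale.

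Sars2, the seryl enzyme, also rose in the T-N1G line, with 13.02, 12.9 and 15.5 CPM under vehicle, 26.1, 24.9 and 25.6 CPM at 0.3 µM and 29.1, 30.2 and 28.9 CPM at 1.0 µM. The mock line had 15.2, 15.1 and 14.9 CPM under vehicle, 18.1, 18.2 and 18.8 CPM at 0.3 µM and 15.2, 23.9 and 14.4 CPM at 1.0 µM. T-N1G doses did not overlap, whereas mock libraries at 0.3 µM were just above vehicle and at 1.0 µM library 2 was high and the other 2 were level with vehicle. Sars2 rose by 0.89 ± 0.14 and 1.09 ± 0.14 log2 units in T-N1G cells (adjusted p = 1.95e-05 and 8.57e-07), and its mock changes were 0.28 ± 0.14 and 0.24 ± 0.14, not called (adjusted p = 0.0912 and 0.126). Hars2 (histidyl) was higher by 0.34 and 0.17 in T-N1G cells and lower by 0.58 at 1.0 µM in mock cells. The T-N1G 1.0 µM call of Hars2 was lost without T-N1G vehicle library 1, T-N1G 0.3 µM library 1 or 2, T-N1G 1.0 µM library 2 or 3, any mock 0.3 µM library or mock 1.0 µM library 3, at log2 changes from 0.03 to 0.19 over all alternatives that lost it. Yars2 (tyrosyl) rose by 0.50 at 0.3 µM in T-N1G cells and fell by 0.33 at 1.0 µM in mock cells, a call lost without mock vehicle library 2 (-0.22).

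For 13 amino acids both a cytosolic and a mitochondrial member exist, and the cytosolic log2 change was above the mitochondrial one in 12 of 13 pairs at each dose in T-N1G cells and in 11 of 13 at each dose in mock cells. The median difference was 0.82 and 1.00 log2 units in T-N1G cells at 0.3 and 1.0 µM, and 1.08 and 1.11 in mock cells. The leucyl pair was the exception in all 4 comparisons, joined in mock cells by the histidyl pair at 0.3 µM and the valyl pair at 1.0 µM. A cytosolic rise beside a mitochondrial fall, both called, was found in 4 pairs at 1.0 µM in T-N1G cells (Cars, Iars, Nars and Rars) and in 8 in mock cells (Aars, Cars, Iars, Nars, Rars, Tars, Wars and Yars). At 0.3 µM there were 3 such pairs in T-N1G cells (Iars, Rars and Tars) and 6 in mock cells (Aars, Iars, Mars, Rars, Tars and Wars). The widest differences were 2.60 for Nars against Nars2 in T-N1G cells and 2.64 for Iars against Iars2 in mock cells, both at 1.0 µM. Of all genes, 29.1% rose and 30.3% fell at 0.3 µM and 37.5% rose and 38.9% fell at 1.0 µM in T-N1G cells. In mock cells 25.0% rose and 28.1% fell at 0.3 µM, and 32.4% rose and 37.4% fell at 1.0 µM. How often unrelated genes would form such opposite pairs was not counted. Pairs are not replicates, and no test was run over them.

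Per length, in FPKM (fragments scaled by transcript length and library depth), Nars stood 38.0, 107 and 240.0 times above Nars2 in T-N1G cells under vehicle, 0.3 µM and 1.0 µM, and 53.1, 114 and 217 times in mock cells. Lars stood below Lars2 in every group, at 0.564, 0.512 and 0.306 of its FPKM in T-N1G cells and 0.621, 0.499 and 0.280 in mock cells. Among the 16 cytosolic members the FPKM under vehicle ran from 29.8 (Yars) to 121 (Aars) in T-N1G cells and from 33.7 (Mars) to 135 (Nars) in mock cells, with medians of 49.9 and 58.1. The next below the top were Nars in T-N1G cells (102) and Aars in mock cells (119). At 1.0 µM Aars had 411 FPKM and Nars 401 in T-N1G cells, and Nars had 399 and Tars 254 in mock cells, while Vars was the lowest of the class in both lines (26.8 and 36.1). Mitochondrial members were lower, with a median of 6.30 FPKM in T-N1G and 6.75 in mock cells under vehicle and with Ears2 lowest in every group (0.892 to 1.09). Lars2 was the highest in all 6 groups, from 72.9 FPKM in T-N1G vehicle to 301 in mock cells at 1.0 µM, and the next, Iars2, had 26.1 FPKM in T-N1G and 25.9 in mock cells under vehicle. At 1.0 µM the second place was held by Sars2 in T-N1G cells (16.9) and by Rars2 in mock cells (14.96).

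The summed FPKM of the cytosolic members over that of the mitochondrial members was 4.86 ± 0.22 under vehicle, 6.56 ± 0.42 at 0.3 µM and 6.79 ± 0.80 at 1.0 µM in T-N1G cells (SD, n = 3). In mock cells it was 4.80 ± 0.23, 6.11 ± 0.11 and 5.24 ± 0.77 (SD, n = 3). Lars2 alone held 35.65% to 81.9% of the mitochondrial FPKM of a library and 45.0% to 87.8% of its mitochondrial CPM. The sum was therefore also taken without Lars2, a choice made after seeing the data. Without Lars2 the ratio was 7.75 ± 0.12, 13.3 ± 0.63 and 18.5 ± 1.79 in T-N1G cells and 7.88 ± 0.21, 15.6 ± 0.32 and 21.9 ± 2.70 in mock cells (SD, n = 3). With Lars2 in the sum the mock libraries at 1.0 µM (4.54 to 6.06) overlapped those under vehicle (4.53 to 4.95), and without it no 2 doses of a line overlapped. Without Lars2 the summed mitochondrial level was 259.9 to 271 CPM at 1.0 µM, against 318 to 328 CPM under vehicle, in T-N1G cells, and 191 to 239 CPM against 354 to 360.1 CPM in mock cells. The cytosolic sum was 5462 to 6224 CPM at 1.0 µM, against 2670 to 2753 CPM under vehicle, in T-N1G cells, and 5354 to 5728 CPM against 2972 to 3231 CPM in mock cells.

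**Figure D3:**
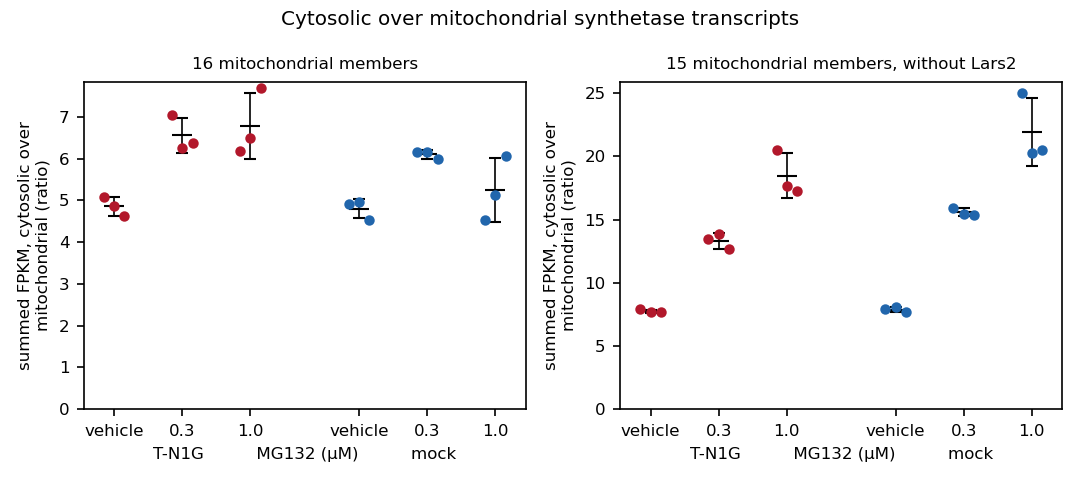
Ratio of summed FPKM, cytosolic over mitochondrial synthetases, in every library (points) with the mean ± SD of 3 libraries, with all 16 mitochondrial members (left panel) and with the 15 left after taking out Lars2 (right panel); T-N1G groups stand left of mock groups and MG132 runs from vehicle to 1.0 µM. With Lars2 the ratio stays between 4.53 and 7.69, and without it the ratio climbs with dose to 17.3 to 20.5 in T-N1G and 20.2 to 25.1 in mock cells.

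The step from 0.3 to 1.0 µM was compared directly as well. In T-N1G cells 8 cytosolic members were higher and 4 lower at 1.0 µM, and 2 mitochondrial members were higher and 8 lower (60.0% of all genes called, 29.3% higher and 30.8% lower). In mock cells 6 cytosolic members were higher and 2 lower, and 1 mitochondrial member was higher and 8 lower (49.6% of all genes, 21.8% higher and 27.8% lower). Rars had the largest cytosolic step in both lines, 0.71 ± 0.09 in T-N1G and 0.68 ± 0.09 in mock cells (adjusted p = 3.5e-06 and 1.12e-05). Vars (-0.70 and -0.58) and Qars fell most among the cytosolic members. On the mitochondrial side Lars2 rose (0.57 and 0.79), a T-N1G call lost without 0.3 µM library 1 or 1.0 µM library 1 of that line (0.47 and 0.33). Cars2 fell most in T-N1G cells (-0.87) and Aars2 in mock cells (-0.72).

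The fewest members differed between the 2 lines without MG132. Under vehicle 9 members were called between T-N1G and mock cells, against 16.1% of all genes, 8.43% higher and 7.72% lower. Of them 1 cytosolic enzyme, Mars, was higher in T-N1G cells, and 6 cytosolic (Hars, Iars, Lars, Nars, Tars and Yars) and 2 mitochondrial enzymes (Hars2 and Rars2) were lower. The changes were small, from -0.48 (Rars2) to 0.20 (Mars). The count depended on single libraries: it was 5, 4 and 4 without T-N1G vehicle library 1, 2 or 3, and 5 and 4 without mock vehicle library 1 or 2, while the share of all genes called in those fits was 9.8%, 11.8%, 11.6%, 10.6% and 9.9%. Iars had the lowest adjusted p of the members at 0.00045, with a log2 difference of -0.35 ± 0.06, followed by Lars at 0.000584 with -0.41 ± 0.07, and for both the T-N1G and mock libraries did not overlap.

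At 0.3 µM, 14 members differed between T-N1G and mock cells, 3 cytosolic higher and 6 lower, and 5 mitochondrial higher and none of the 16 called lower (48.5% of all genes called, 25.0% higher and 23.5% lower). Of the 32 members that is 25.0% higher and 18.8% lower, no more than the shares of all genes. At 1.0 µM, 23 differed, 5 cytosolic higher and 7 lower, and 7 mitochondrial higher and 4 lower (61.9% of all genes, 30.7% higher and 31.3% lower). The largest differences at 1.0 µM were higher in T-N1G cells for Iars2 (0.98 ± 0.09), Hars (0.97 ± 0.11) and Fars2 (0.85 ± 0.12), with adjusted p of 2.02e-08, 4.18e-07 and 1.25e-05. Tars (-0.76 ± 0.07, adjusted p = 4.5e-08), Vars2 (-0.70 ± 0.16, adjusted p = 0.000922) and Cars (-0.66 ± 0.08, adjusted p = 1.87e-06) were lower in T-N1G cells.

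Whether the response to MG132 itself differed between the lines was tested by the interaction of line and dose. At 0.3 µM 10 members were called, 4 cytosolic (Aars, Hars, Mars and Nars) and 6 mitochondrial (Aars2, Fars2, Hars2, Iars2, Sars2 and Yars2), all with a more positive change in T-N1G than in mock cells, against 25.1% of all genes called, 14.2% positive and 11.0% negative. The count was 6 without library 1 of T-N1G vehicle, T-N1G 0.3 µM, mock vehicle or mock 0.3 µM or without mock 0.3 µM library 3, and 4 without mock vehicle library 2, while 20.3% to 20.6% of all genes were called in those fits. At 1.0 µM 17 members were called, against 45.0% of all genes, 22.9% positive and 22.1% negative. There, 6 cytosolic (Aars, Hars, Kars, Mars, Nars and Wars) and 8 mitochondrial members (Aars2, Fars2, Hars2, Iars2, Mars2, Sars2, Tars2 and Yars2) were positive, and Cars, Tars and Vars2 were negative. The median interaction of the mitochondrial members was 0.29 at 0.3 µM and 0.35 at 1.0 µM, beside 0.00 and -0.02 for all genes. Without T-N1G 1.0 µM library 3 or mock vehicle library 2 the second value was 0.20 or 0.21. The cytosolic medians were 0.06 and 0.05, and the one at 1.0 µM changed sign without single libraries (-0.03 without mock vehicle library 2).

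Hars had the largest interaction, 1.29 ± 0.15 at 1.0 µM (adjusted p = 2.29e-06) and 0.68 ± 0.15 at 0.3 µM (adjusted p = 0.0029). Fars2 followed with 0.97 ± 0.18 and 0.81 ± 0.18 (adjusted p = 0.000248 and 0.00272), and Iars2 with 0.97 ± 0.12 and 0.89 ± 0.12 (adjusted p = 3.15e-06 and 2.44e-05). Sars2 (0.85 ± 0.19, adjusted p = 0.00157), Aars2 (0.84 ± 0.21, adjusted p = 0.00337) and Aars (0.77 ± 0.11, adjusted p = 1.7e-05) were positive at 1.0 µM as well. Tars had -0.50 ± 0.10 (adjusted p = 0.000581), Cars -0.41 ± 0.12 (adjusted p = 0.0084) and Vars2 -0.57 ± 0.22 (adjusted p = 0.0425). The interactions of Aars, Fars2, Hars and Iars2 were called at both doses in every alternative run. Rab3gap2, which overlaps the Iars2 locus, had interactions of 0.69 and 1.02 (adjusted p = 0.000167 and 8.79e-07).

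Other interaction calls were lost when any 1 of several libraries was left out, and the sign was kept in every alternative. The range given with each lost call spans all alternatives that lost it. The Vars2 call at 1.0 µM was lost without library 1 of any of T-N1G vehicle, T-N1G 1.0 µM, mock vehicle or mock 0.3 µM, library 2 of mock vehicle, mock 0.3 µM or mock 1.0 µM, or library 3 of T-N1G 1.0 µM, mock 0.3 µM or mock 1.0 µM, at -0.61 to -0.43. Nars was called at 0.3 µM (0.44) and 1.0 µM (0.44). Its 0.3 µM call was lost, at 0.40 to 0.46, without T-N1G vehicle library 2 or 3, T-N1G 0.3 µM library 1 or 2, or any mock vehicle or mock 0.3 µM library. Its 1.0 µM call was lost, at 0.22 to 0.44, without T-N1G vehicle library 2 or 3, T-N1G 1.0 µM library 1, any mock vehicle library, or mock 1.0 µM library 2 or 3. Yars2 (0.46 at 0.3 µM and 0.40 at 1.0 µM) lost its first call, at 0.40 to 0.43, without library 3 of T-N1G vehicle, T-N1G 0.3 µM or mock 0.3 µM or without mock vehicle library 2. It lost the second, at 0.26 to 0.40, without T-N1G vehicle library 2 or 3, T-N1G 0.3 µM library 3, T-N1G 1.0 µM library 1, mock vehicle library 1 or 2, or mock 1.0 µM library 2 or 3. Aars2 at 0.3 µM (0.64) was lost without library 1 or 2 of T-N1G vehicle or T-N1G 0.3 µM, any mock vehicle library, or mock 0.3 µM library 1 or 3 (0.56 to 0.65), and Sars2 (0.61) without T-N1G vehicle library 1 or 2, T-N1G 0.3 µM library 1, any mock vehicle library, or mock 0.3 µM library 1 or 2 (0.55 to 0.61). Hars2 (0.34) was lost without library 1 of T-N1G vehicle, T-N1G 0.3 µM, mock vehicle or mock 0.3 µM, mock vehicle library 2, or mock 0.3 µM library 3 (0.29 to 0.34), and Mars (0.30) without T-N1G vehicle library 1 or 2 or library 2 of T-N1G 0.3 µM, mock vehicle or mock 0.3 µM (0.26 to 0.30).

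**Figure D4:**
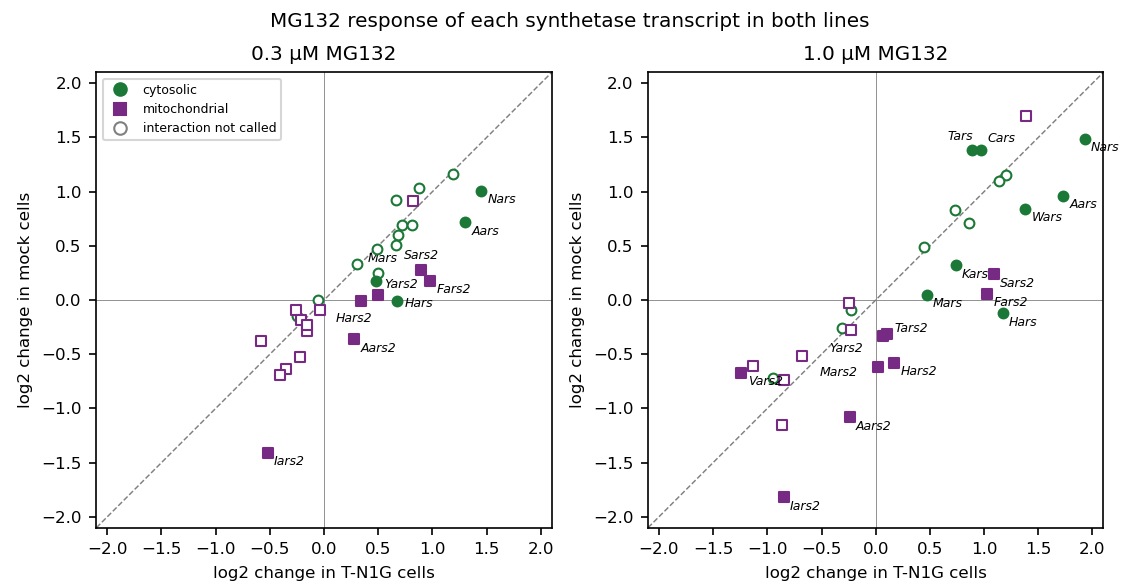
log2 change with MG132 in T-N1G cells (x axis) against mock cells (y axis) for the 32 synthetase transcripts at 0.3 µM (left) and 1.0 µM (right); circles are cytosolic and squares mitochondrial members, filled where the interaction of line and dose was called, and the diagonal marks equal change. Hars, Fars2, Iars2, Sars2 and Aars2 lie below the diagonal at both doses, and Tars, Cars and Vars2 lie above it at 1.0 µM.

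The lists of related genes that follow were written with earlier results of these data known and describe only themselves. Of all genes at 1.0 µM, 37.5% rose and 38.9% fell in the T-N1G line, and 32.4% rose and 37.4% fell in the mock line. Of 6 other synthetase genes, 3 rose and 3 fell at 1.0 µM in T-N1G cells and 2 rose and 3 fell in mock cells. Eprs, the glutamyl-prolyl enzyme of the complex, changed by 0.90 in T-N1G and 0.41 in mock cells, and Gars, the glycyl enzyme of both compartments, by 0.30 and 0.65. Tarsl2 changed by -1.36 in T-N1G and -0.96 in mock cells, and Farsb by -0.25 and -0.57, both called lower in both lines. Farsa, the other subunit of the phenylalanyl enzyme, was called in T-N1G cells (0.30) and not in mock cells (-0.04, adjusted p = 0.625).

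Of 7 measured genes for complex scaffolds and mitochondrial tRNA amidation or formylation, 1 rose and 4 fell at 1.0 µM in T-N1G cells (37.5% and 38.9% of all genes) and 2 rose and 3 fell in mock cells (32.4% and 37.4%). Qrsl1, the catalytic subunit of the glutaminyl-tRNA amidotransferase, had 13.2, 13.5 and 14.4 CPM under vehicle, 26.1, 25.6 and 27.5 CPM at 0.3 µM and 30.3, 32.5 and 30.2 CPM at 1.0 µM in T-N1G cells. In mock cells Qrsl1 had 14.3, 13.7 and 12.9 CPM under vehicle, 16.03, 17.96 and 16.2 CPM at 0.3 µM and 11.2, 14.5 and 15.1 CPM at 1.0 µM. The T-N1G line climbed with dose, while mock libraries at 1.0 µM overlapped vehicle. Its interaction was 1.18 ± 0.14 at 1.0 µM (adjusted p = 2.78e-06). Gatc, another subunit, changed by -1.18 in T-N1G and -1.13 in mock cells, Gatb by -0.50 and -0.60, and Mtfmt, the formyltransferase, by -0.80 and -0.86. The scaffold Aimp2 changed by -0.54 in T-N1G and 0.44 in mock cells (interaction -0.97, adjusted p = 9.99e-06), and the scaffold Eef1e1 by 0.08, not called, and 0.53, called.

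Among 9 mitochondrial translation factors, 6 rose and 2 fell at 1.0 µM in T-N1G cells (37.5% and 38.9% of all genes) and 2 rose and 3 fell in mock cells (32.4% and 37.4%). Gfm1, the mitochondrial elongation factor G, had 86.1, 88.7 and 91.2 CPM under vehicle, 159, 164 and 157 CPM at 0.3 µM and 186, 187 and 199 CPM at 1.0 µM in T-N1G cells. Mock libraries had 96.7, 91.9 and 91.5 CPM under vehicle, 94.8, 88.7 and 95.7 CPM at 0.3 µM and 83.1, 102 and 97.3 CPM at 1.0 µM. All treated T-N1G libraries were above every other library, and the mock groups overlapped. Gfm1 changed by 0.85 ± 0.07 and 1.11 ± 0.07 in T-N1G cells (adjusted p = 1.09e-08 and 1.16e-10) and by -0.00 and 0.01 in mock cells, with an interaction of 1.09 ± 0.10 at 1.0 µM (adjusted p = 1.06e-07). The release factor Mtrf1l rose in both lines (0.92 and 0.97), Mtif2 changed by 0.75 in T-N1G and 0.10 in mock cells, Mrrf by 0.73 and 0.71, and Gfm2 by 0.46 and -0.41. Tsfm (-0.92 and -0.92) and Mtif3 (-0.52 and -0.55) fell in both. Of 8 cytosolic elongation and termination factors, 4 rose and 2 fell at 1.0 µM in each line, with Etf1 (0.67 in T-N1G and 0.91 in mock cells) and Eef2 (0.44 and 0.66) the largest rises and Eef1d (-0.83 and -0.70) the largest fall. Eef1b2 changed by 0.24 in T-N1G and 0.35 in mock cells, Eif5a by -0.55 and -0.29, and Gspt1 by 0.17 and -0.26.

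Of 28 genes of the amino acid and ATF4 response, 19 rose and 2 fell at 0.3 µM and 18 rose and 7 fell at 1.0 µM in T-N1G cells, and 21 rose and none was called lower at 0.3 µM and 21 rose and 1 fell at 1.0 µM in mock cells. The medians were 0.59 and 0.68 in T-N1G and 0.64 and 0.68 in mock cells, beside -0.01 to -0.04 for all genes. Of all genes, 29.1% rose and 30.3% fell at 0.3 µM and 37.5% rose and 38.9% fell at 1.0 µM in T-N1G cells, and 25.0% rose and 28.1% fell at 0.3 µM and 32.4% rose and 37.4% fell at 1.0 µM in mock cells. Atf3, a stress-induced transcription factor, rose by 5.93 log2 units in T-N1G and 6.02 in mock cells at 1.0 µM, and Ppp1r15a, which brings the phosphatase to eIF2alpha, by 4.07 and 3.55. Slc7a11, the cystine transporter subunit, rose by 4.07 in T-N1G cells and 2.03 in mock cells (interaction 2.05, adjusted p = 0.000468), and Pycr1, of proline synthesis, changed by -1.90 and -0.63. Cebpb, a partner of ATF4, changed by 1.48 in T-N1G and 2.52 in mock cells, Vldlr by -0.81 and 0.01, and Ddit4 by -0.61 and -0.17, the last 2 called in T-N1G cells and not in mock cells (adjusted p = 0.977 and 0.221 in mock cells) and with interactions of -0.82 (adjusted p = 0.102) and -0.44 (adjusted p = 0.0458). Atf4, chosen after its values were seen, was at 278, 275 and 265 CPM under vehicle, 552, 563 and 503 CPM at 0.3 µM and 409.8, 382 and 473 CPM at 1.0 µM in T-N1G cells. Atf4 in mock cells was at 307, 326 and 302 CPM under vehicle, 388, 382 and 415 CPM at 0.3 µM and 287, 280.0 and 355 CPM at 1.0 µM. It was highest at 0.3 µM in both lines and, in mock cells, overlapped vehicle at 1.0 µM. Its log2 change was 0.98 ± 0.09 and 0.63 ± 0.09 in T-N1G cells (adjusted p = 5.33e-08 and 5.85e-06) and 0.34 ± 0.09 and -0.02 ± 0.09 in mock cells (adjusted p = 0.0043 and 0.867), and its interaction was 0.64 and 0.65 (adjusted p = 0.00134 and 0.000545). Of the 4 kinases of eIF2alpha, which act upstream of Atf4 translation, Eif2ak1 changed by 1.46 in T-N1G and 0.10 in mock cells at 1.0 µM (interaction 1.36, adjusted p = 1.53e-06), Eif2ak2 by 1.02 and 0.66, Eif2ak4 by -0.18 and -0.13, and Eif2ak3 by -0.38 and -0.56.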

How the data were processed

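RNA was read from poly(A)-selected, strand-specific libraries of 18 samples, 3 in each of 6 groups. Cuffdiff 2.1.1, TopHat2 2.0.8b, bcl2fastq 2.16.0.10 and the mouse build mm9 were used, per the submitters' processing notes, and whether counting used strand is not given in the sources used here. The deposited estimated counts per gene and library, as the authors made them with Cuffdiff, are not normalized, and 98.16% to 98.51% were whole within 1e-06. They were rounded for testing. The deposited FPKM values of the authors were used only for levels between genes. Cuffdiff's replicates 0 to 2 were taken as numbers 1 to 3 of the titles, and its conditions N1, L-MG and H-MG as T-N1G, 0.3 µM and 1.0 µM, which the files do not spell out. The 2 genes left unprocessed in some libraries were dropped.

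Genes with enough counts (filterByExpr, 13258) were tested with edgeR 4.0.16 in R 4.3.3 (limma 3.58.1): TMM scaling, 6 group means, robust quasi-likelihood test, Benjamini-Hochberg adjustment over all genes in each of 11 comparisons, and a call at an adjusted p under 0.05. Values after ± are SE for log2 changes and SD elsewhere. Low counts limit precision most for Pars2, whose lowest library has 42 fragments. The code was tested on simulated data. Alternatives were DESeq2 1.42.0, RLE or library-size scaling, no filter, only the groups compared, a replicate block, and each library left out. A median or count over a list describes it and was not tested. The members and lists were chosen with earlier results of these data known. Every library is printed for 20 members, those among the 3 largest called changes per direction and class with MG132, or among the 3 largest of a line or interaction comparison. Of the other lists, the 3 largest called changes per direction at 1.0 µM are named, except for results not reported here. Transcript overlaps were searched in reference transcripts of a later build, GRCm38, and used for names only.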

Additional observations from a re-analysis of the deposited data

Results flagged for a closer look

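The response to MG132 differed between the T-N1G and mock lines by the interaction term of the quasi-likelihood fit for the members given here, as the T-N1G log2 change minus the mock log2 change. At 0.3 µM the differences were 0.58 for Aars, 0.64 for Aars2, 0.81 for Fars2, 0.68 for Hars, 0.34 for Hars2, 0.89 for Iars2, 0.30 for Mars, 0.44 for Nars, 0.61 for Sars2 and 0.46 for Yars2. At 1.0 µM the positive differences were 0.77 for Aars, 0.84 for Aars2, 0.97 for Fars2, 1.29 for Hars, 0.75 for Hars2, 0.97 for Iars2, 0.42 for Kars, 0.42 for Mars, 0.64 for Mars2, 0.44 for Nars, 0.85 for Sars2, 0.40 for Tars2, 0.54 for Wars and 0.40 for Yars2. The negative ones at 1.0 µM were -0.41 for Cars, -0.50 for Tars and -0.57 for Vars2. Of all genes, 25.1% were called for the interaction at 0.3 µM and 45.0% at 1.0 µM. The calls of Nars and Yars2 at both doses and of Vars2 at 1.0 µM were lost in fits without single libraries. So were those of Aars2, Sars2, Hars2 and Mars at 0.3 µM. Both doses of a line share its vehicle libraries.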

How the results depend on the processing

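Of 209 called pairs of a member and a comparison, 0 reversed in sign in any of 25 alternatives, 156 stayed called in all of them, and 53 lost the call in at least 1. The number of members called moved by more than 1.5 times in 2 comparisons. T-N1G against mock cells under vehicle gave 9 members, 16 when only the groups compared entered the fit (36.8% of all genes against 16.1%), and 4 to 12 when each library was left out. The interaction at 0.3 µM gave 10 members and 4 to 11 with each library left out. Against vehicle the counts with 1 library left out ran from 16 to 23 and 23 to 26 for mock cells at 0.3 and 1.0 µM, and from 20 to 24 and 24 to 26 for T-N1G cells. For the step between the doses they ran from 14 to 20 in mock and 18 to 24 in T-N1G cells. Between the lines they ran from 11 to 19 at 0.3 µM and 21 to 24 at 1.0 µM, and for the interaction at 1.0 µM from 14 to 18. Of the 16 uncalled changes with MG132 among the members printed for every library, 9 were called in at least 1 alternative and 5 changed sign. Among members, signs changed for values near 0 that were not called. Dars in mock cells at 0.3 µM became 0.0269 with RLE scaling and with DESeq2, 0.0274 without the filter, 0.0205 with only the groups compared, 0.0241 without both number 3 libraries at 1.0 µM and -0.0272 to 0.0554 with single libraries left out, and at 1.0 µM 0.0003 with RLE, 0.0002 with DESeq2 and -0.0909 to 0.0081 with single libraries left out. Hars in mock cells at 0.3 µM became 0.0137 with RLE and with DESeq2, 0.0142 without the filter, 0.0073 with only the groups compared, 0.0109 without both number 3 libraries and -0.0201 to 0.035 with single libraries left out, and at 1.0 µM 0.0392 without both number 3 libraries. Fars2 in mock cells at 1.0 µM became -0.0279 with library size scaling and -0.0061 to 0.2283 with single libraries left out. The cytosolic median of the interaction at 1.0 µM became -0.0163 without the filter and -0.0307 to 0.0426 with single libraries left out. The cause of these shifts was not tested. Scaling by library size only moved the members' log2 changes by a median of -0.14 at 1.0 µM in T-N1G cells and of no more than 0.09 in size in the other comparisons. With the title numbers as a replicate block, 22 and 26 members were called in mock cells, 23 and 26 in T-N1G cells, 11, 15 and 25 between the lines and 12 and 17 for the interactions, and 1 of the 209 calls was lost. Same-numbered libraries correlated at -0.108 to 0.811, 35 of 45 pairs were over 0.1, and all 18 libraries were closest to their own number, a hint from the data and not from the design. The setting without both number 3 libraries and the sums without Lars2 were chosen after seeing the data.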
